A study of Drosophila melanogaster with 4 samples.

Results

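The Bithorax complex of Drosophila melanogaster, the cluster that holds the homeotic genes Ubx, abd-A and Abd-B, carried very few LSD1 regions in adult head chromatin. The complex was taken as a window of 330 kb on chromosome arm 3R, 3R:12480000-12810000 in release 5 of the fly genome, and every listed region of enrichment that overlapped it was counted as a member. Replicate 1 had 6 such regions of its 8115, replicate 2 had 5 of 9911, and the combined list had 8 of 11016. Within the window Ubx spanned about 12482000 to 12560500 (78.5 kb), abd-A about 12632000 to 12656000 (24.0 kb) and Abd-B about 12752000 to 12798000 (46.0 kb). These spans are approximate, so short distances from a gene end cannot be read exactly. The release 6 gene table identifies them as NCBI genes 42034, 42037 and 47763. The window was set by position and not by measured values, but the members and lists were chosen with earlier results of these data known.

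The samples were 2 libraries of chromatin precipitated with the LSD1 antibody Q3430 and 2 input libraries that were not precipitated, all from heads of wild-type Oregon-R flies labelled as mixed adults, numbered as replicates 1 and 2. Each ChIP library had its own list of regions, the authors deposited a combined list for the replicate set, and no list of the input libraries was used. Each region carries a score from the authors. No header names its scale, and its values fit a log2 ratio of ChIP over input. The samples were of 1 genotype, tissue and treatment, so the comparison made here is between the Bithorax window and the rest of the arm. Flies were raised in population cages and heads were collected by sieving. Whether each replicate was a collection of its own is not stated in the labels, and their spread may be technical. A head holds many cell types, and LSD1 bound in fewer cells cannot be told apart from less LSD1 per cell.

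LSD1, encoded in flies by Su(var)3-3, is a histone demethylase that removes methyl marks found at active enhancers and promoters, and it works with the corepressor CoREST and with histone deacetylases. The homeotic genes encode homeodomain transcription factors that give body segments their identity. Ubx acts in the posterior thorax and anterior abdomen, abd-A in the middle of the abdomen, and Abd-B in its most posterior part and the genitalia. Their order along the chromosome matches the order of the body parts they act in. All are read from right to left in the coordinates used here, so the right end of each span was taken as its start. Starts further inside a span were not considered. Outside the body parts where they act they are classic targets of Polycomb silencing. Long regulatory stretches lie between them. In the release 6 gene table, which served for names and order only, 6 annotated genes lay between Ubx and abd-A, among them the noncoding lncRNA:bxd and the protein-coding CG31275 and Glut3. Another 6 lay between abd-A and Abd-B, among them lncRNA:iab4, lncRNA:iab8 and the microRNAs mir-iab-4 and mir-iab-8, which are known to repress homeotic genes.

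The first comparison asked how much of the complex was covered by LSD1 regions. A base counts as uncovered where no enrichment was called, which does not show that LSD1 was absent there. In replicate 1, regions covered 3.25% of the Bithorax window and 27.2% of the rest of 3R. In replicate 2 they covered 3.04% of the window and 30.8% of the rest of the arm. The combined list covered 3.97% of the window and 38.3% of the rest. The rest of the arm was thus 8.39, 10.1 and 9.64 times as densely covered in the 3 lists. The replicate mean for the window was 3.14% ± 0.146 (SD, n = 2), so in total share the replicates differed by far less than the window differed from the arm. This compares totals and not positions, since the replicates shared 7218 of the 13519 bases that either covered in the window. No test was made, because with 2 replicates the smallest two-sided p of an exact sign-flip test is 0.5, and windows along a chromosome are not replicates.

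Windows of the same length show where the complex stood on its arm. When 3R was divided into non-overlapping windows of 330 kb laid out from the complex, the Bithorax window had the lowest covered share in each of the 3 lists. The other 82 windows ranged from 3.81% to 55.4% in replicate 1, with a median of 28.3%. They ranged from 5.06% to 53.1% in replicate 2, with a median of 30.0%, and from 5.75% to 66.0% in the combined list, with a median of 39.9%. With windows placed every 10 kb, 10 of 2692 windows (0.371%) in replicate 1 were covered as little as the complex or less, as were 3 (0.111%) in replicate 2 and 3 (0.111%) for the combined list. The 3 windows of replicate 2 and of the combined list lay within 3R:2540001-2890001. Of the 10 in replicate 1, 9 lay within 3R:2490001-2900001 and 1 at 3R:1840001-2170001. The Antennapedia complex, the other homeotic cluster of the fly, is also on this arm, toward the centromere, but release 5 positions of its genes were not used here, so these windows were not matched to genes.

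**Figure D1:**
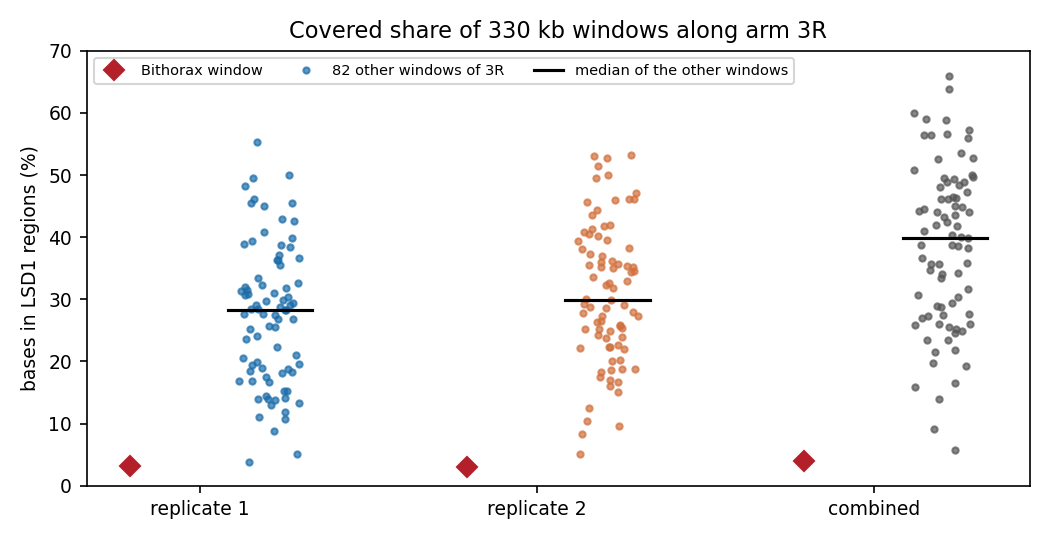
Share of bases (y axis, percent) covered by LSD1 regions in 330 kb windows of arm 3R, for replicate 1, replicate 2 and the combined list. The red diamond is the Bithorax window, the dots are the 82 other non-overlapping windows, and the line is their median; the diamond lies below every dot in each list, at 3.25%, 3.04% and 3.97%.

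The low share of the complex was less unusual when the other autosome arms were included. On 2L, 2R, 3L and 3R together, 175 of 9465 windows (1.85%) had a replicate mean at or below that of the Bithorax window. Of these, 112 lay on 3L, where the lowest window had 0% covered, 29 on 2L, 25 on 2R and 9 on 3R. The complex was therefore among the most sparsely covered stretches of its own arm, and other arms held sparser ones.

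The complex had fewer regions than its arm and no broad ones. The window had 18.2 regions per Mb in replicate 1, 15.2 in replicate 2 and 24.2 for the combined list, against 65.7, 85.0 and 92.2 per Mb over the whole of 3R. Of the 82 other windows, 1 had as few regions in replicate 1, none in replicate 2 and 1 for the combined list, and their medians were 22.5, 28.5 and 31.5 regions. The widest region of the complex measured 2222 bp in replicate 1 and 2347 bp in replicate 2. In every one of the 82 other windows the widest region was larger than that, at 4035 bp or more in replicate 1 and 3347 bp or more in replicate 2. In the combined list the widest member measured 5201 bp, and 1 of the 82 other windows had no region wider than that. Nearly all of those windows held more regions, and the widest of more regions tends to be wider. No region of at least 10 kb touched the complex. On 3R such broad regions were 139 of 1832 in replicate 1 and 127 of 2373 in replicate 2. They held 34.8% and 25.1% of the covered length of the arm. With 6 and 5 members, having none does not set the complex apart at these shares. Median widths within the complex were 1870 bp in replicate 1 and 2049 bp in replicate 2, against 2166.5 bp and 2143 bp on the whole arm.

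**Figure D2:**
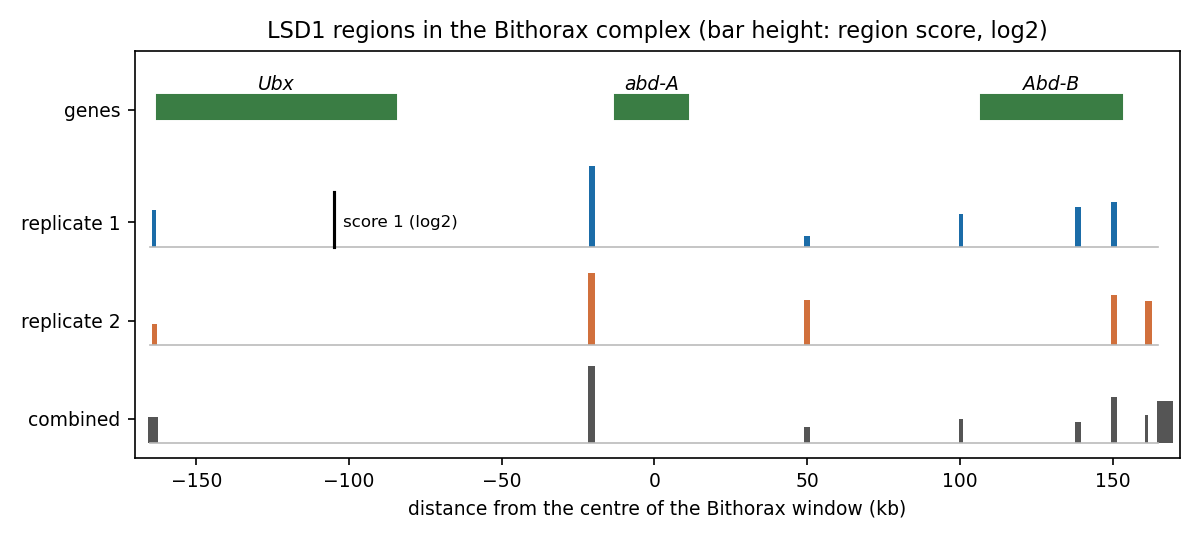
LSD1 regions along the Bithorax window (x axis, distance from its centre in kb) in replicate 1, replicate 2 and the combined list, below the spans of Ubx, abd-A and Abd-B. Bar width is region width and bar height is the log2 score; the tallest bar of each list stands just left of abd-A, and a stretch of about 141 kb that takes in Ubx holds no bar.

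Ubx, the most proximal of the homeotic genes in the complex, lay almost wholly in a stretch without any region. Replicate 1 covered 0% of the Ubx span, replicate 2 covered 0.164% and the combined list 0.424%. The bases covered in replicate 2 and in the combined list belonged to a region at the left end of the gene, where its transcript ends. That region was 3R:12480606-12481928 in replicate 1 and ended 71 bp before the approximate Ubx span, and it was 3R:12480661-12482128 in replicate 2 and reached 129 bp into it. Since the span is approximate, whether this region overlaps Ubx cannot be decided. Its log2 score was 0.68 in replicate 1, rank 798 among 1832 regions of 3R, and 0.39 in replicate 2, rank 2345 among 2373. The combined list had it at 3R:12479334-12482332 with 0.48. Each replicate 1 region of 3R that overlapped replicate 2 was paired with the replicate 2 region that shared the most bases with it. A replicate 2 region could serve in several pairs. Of these 1457 overlapping pairs, 44 (3.02%) had a score difference (replicate 2 minus replicate 1) as low as the -0.29 of this region beside Ubx. Windows as long as Ubx were covered as little or less in 91 of 2743 cases (3.32%) in replicate 1, 71 (2.59%) in replicate 2 and 57 (2.08%) for the combined list. The median window of that length was covered to 23.8%, 29.3% and 37.5% in these lists.

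The stretch without regions ran past the start of Ubx into the regulatory DNA that separates it from abd-A. It was 141.5 kb long in replicate 1, 141.3 kb in replicate 2 and 141.1 kb for the combined list. Its length ranked 5 among 1826 gaps between regions of 3R in replicate 1, 4 among 2365 in replicate 2 and 3 among 2572 in the combined list, where the median gaps were 4042, 3058 and 2239 bp. Over the 4 autosome arms it ranked 30 among 6289 gaps in replicate 1, 19 among 8167 in replicate 2 and 19 among 8593 in the combined list. The start of Ubx lay 62.9 kb from the nearest region in each of the 3 lists. Of all 3R positions, 0.991% were as far from a region in replicate 1, 0.475% in replicate 2 and 0.447% for the combined list, and the median position was 2892, 1802 and 944 bp away.

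The highest-scoring region of the complex closed this gap on its right side. It lay between Ubx and abd-A, 6.4 kb to the left of the abd-A span, on the side where the abd-A transcript ends. Its extent was 3R:12623427-12625648 in replicate 1, 3R:12623421-12625590 in replicate 2 and 3R:12623408-12625644 in the combined list. Its log2 score was 1.49 in replicate 1, 1.31 in replicate 2 and 1.42 from the combined list. Read as log2, these values stand for ratios of 2.81, 2.49 and 2.68. Each list has a constant that is not known, so these ratios are not a known fold over input. It ranked 16 among 1832 regions of 3R in replicate 1, 71 among 2373 in replicate 2 and 13 among 2574 in the combined list. Many of the regions above it were broader. Among regions of 3R no wider than itself, its score ranked 3 of 955 in replicate 1, 3 of 1210 in replicate 2 and 4 of 1451 in the combined list. It was the sole region in the stretch between Ubx and abd-A in every list, and gave that stretch a covered share of 3.11% in replicate 1, 3.04% in replicate 2 and 3.13% for the combined list. Windows of the same length, 71.5 kb, were covered as little or less in 8.75%, 6.49% and 4.19% of cases.

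**Figure D3:**
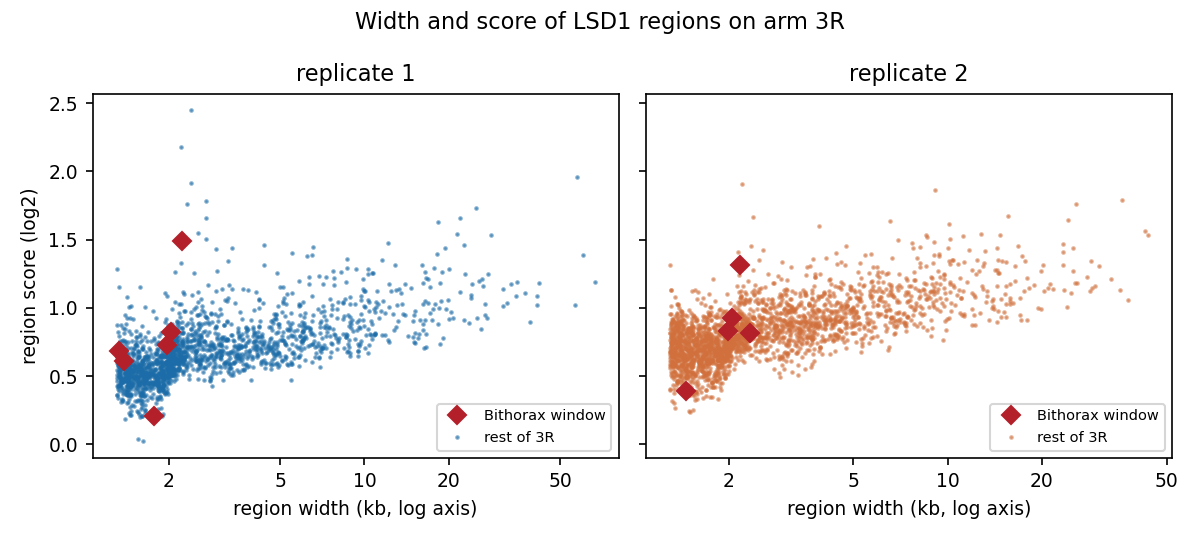
Width (x axis, kb, log scale) and log2 score (y axis) of each LSD1 region on 3R in replicate 1 and replicate 2. Red diamonds are the regions of the Bithorax window, 6 and 5 in number, and dots are the rest of the arm; the diamonds are all narrow, and the highest, at 1.49 and 1.31, stands above nearly all regions of like width.

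No region touched abd-A in any of the 3 lists. For a gene of 24.0 kb this was not rare, since 588 of 2754 windows of that length (21.4%) were likewise uncovered in replicate 1, 446 (16.2%) in replicate 2 and 347 (12.6%) for the combined list. The start of abd-A lay 30.4 kb from the nearest region in each list, which was the high-scoring region on its left. Of all 3R positions, 6.24% were as far from a region in replicate 1, 4.85% in replicate 2 and 3.52% by the combined list. The gap that holds abd-A was 68.5 kb in replicate 1, 68.4 kb in replicate 2 and 68.5 kb for the combined list.

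The stretch between abd-A and Abd-B, which holds the iab noncoding RNAs, had a covered share of 3.28% in replicate 1, 2.08% in replicate 2 and 3.18% for the combined list. Of 2739 windows of the same length, 96.0 kb, 5.44% were covered as little or less in replicate 1, 2.99% in replicate 2 and 2.92% for the combined list. A region was found there in every list, at 3R:12694121-12695885 in replicate 1 and 3R:12694018-12696011 in replicate 2. Its scores also lay far apart, in the other direction, at 0.21 in replicate 1, 0.83 in replicate 2 and 0.30 for the combined list. In replicate 1 it ranked 1827 among 1832 regions of the arm, while in replicate 2 it ranked 1148 among 2373. The difference of 0.62 (replicate 2 minus replicate 1) was reached or passed by 55 of the 1457 overlapping pairs of 3R (3.77%), whose median difference was 0.21. Each list carries its own constant, so differences between lists are differences in deposited values. A second region of this stretch, 3R:12744635-12746020, was listed in replicate 1 with a score of 0.61, and in the combined list at 3R:12744782-12745944 with 0.43, but not in replicate 2, where the gap from 12696012 to 12794439 was 98.4 kb long.

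Abd-B was the most covered gene of the complex. Regions covered 8.72% of its span in replicate 1, 4.45% in replicate 2 and 8.73% for the combined list, a replicate mean of 6.59% ± 3.02 (SD, n = 2). The median window of the same length was covered to 21.4% in replicate 1, 27.9% in replicate 2 and 36.0% for the combined list, and 25.4%, 12.8% and 14.6% of windows were covered as little or less. Taken alone, the Abd-B span was therefore sparsely covered for its arm but not rare. It lay just above the lower quartile of such windows in replicate 1, 8.58%. It lay below that quartile in replicate 2, 12.2%, and in the combined list, 16.9%. The recurring region of Abd-B lay near the right end of the gene, with its right edge 1.5 kb inside the end of the span. This region was 3R:12794423-12796460 in replicate 1, with a score of 0.82, 3R:12794440-12796488 in replicate 2, with 0.92, and 3R:12794422-12796478 in the combined list, with 0.85. It ranked 397 among 1832 regions of 3R in replicate 1, 699 among 2373 in replicate 2 and 201 among 2574 in the combined list. Among regions of 3R no wider than itself, it ranked 29 of 794, 68 of 1099 and 7 of 1341. Abd-B thus had a region close to the right end of its span in each list. The right ends of Ubx and abd-A lay 62.9 and 30.4 kb from one. A position 1.5 kb from a region is ordinary, since 58.6% of 3R positions in replicate 1 and 52.4% in replicate 2 were as far or farther. The second region inside Abd-B, 3R:12782708-12784682, was listed in replicate 1 with a score of 0.73 and in the combined list with 0.38, and accounts for the gap between the replicates.

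**Figure D4:**
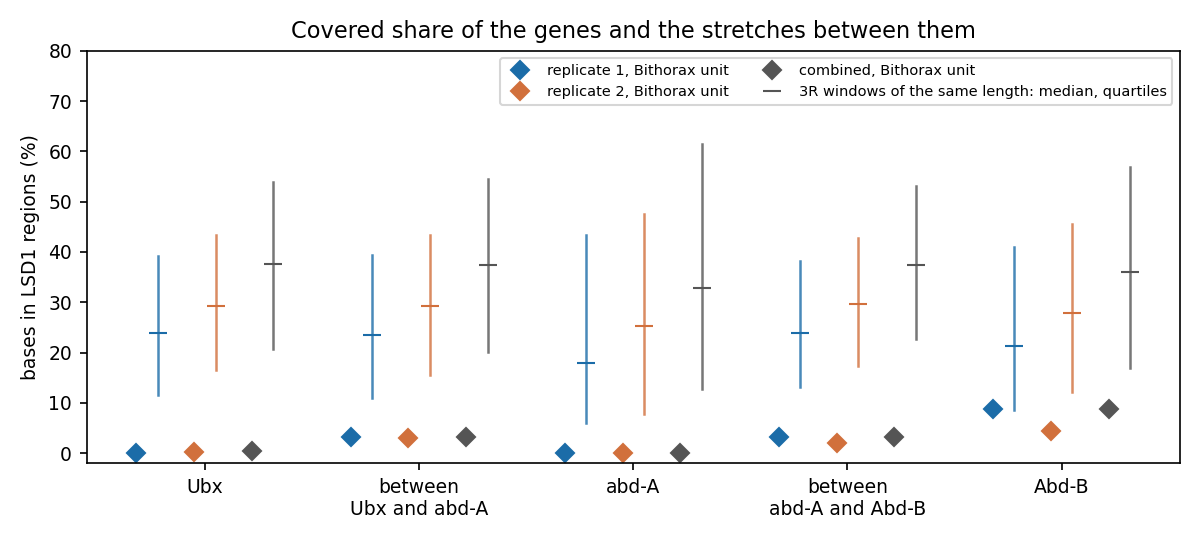
Share of bases (y axis, percent) covered by LSD1 regions in each gene of the complex and in the stretches between them, by list (diamonds). The ticks and lines to their right give the median and quartiles of 3R windows of the same length; the diamonds lie below the lower quartile except for Abd-B in replicate 1, where 8.72% is just above it.

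To the right of Abd-B, replicate 2 listed 3R:12805651-12807997 with a score of 0.81, replicate 1 listed nothing inside the window, and the combined list had 3R:12805672-12806752 with 0.52. The last combined region, 3R:12809614-12814814, lay inside the window with 387 bp and counts as a member only through them. Its counterparts began outside the window, 693 bp to the right of it in replicate 1 and 124 bp in replicate 2. Its score was 0.76 and its width 5201 bp, which made it the one member wider than 3 kb.

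The second comparison asked how far the members recurred. Replicate 2 also listed 4 of the 6 members of replicate 1, and over the whole arm it listed 79.5% of 1832. Replicate 1 also listed 4 of the 5 members of replicate 2, and over the whole arm 66.6% of 2373. Both replicates listed 5 of the 8 combined members, and 43.4% of the 2574 combined regions of the arm. Among those 5 is the region at the right edge that lay inside the window with 387 bp only, whose counterparts began outside it. With 5 to 8 members a list, these counts do not set the complex apart from its arm. In bases, the replicates shared 7218 of the 13519 that either covered, a Jaccard index of 0.534, and the median over 2692 windows of 3R was 0.549.

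Where both replicates listed a region, its edges were close. The larger of the 2 edge differences was 28 bp at the region near the start of Abd-B, 58 bp at the high-scoring region, 126 bp at the region between abd-A and Abd-B and 200 bp at the region beside Ubx. Over the 1457 overlapping pairs of 3R the median was 1510 bp. Of these pairs, 0.343% matched as closely as the Abd-B pair, 1.03% as closely as the high-scoring pair, 3.98% as closely as the pair between the genes and 7.62% as closely as the one beside Ubx. Pairs on the arm include broad regions that were split differently in the replicates, and wide regions were not separated from narrow ones in this comparison.

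Scores of the members were otherwise spread over the range of the arm. Among regions of 3R no wider than themselves, the other members ranked from 29 of 794 to 530 of 535 in replicate 1. In replicate 2 they ranked from 68 of 1099 to 326 of 331. The length-weighted mean score of the window was 0.80 in replicate 1 and 0.89 in replicate 2, a mean of 0.84 ± 0.063 (SD, n = 2), and the arm had 0.85 and 0.97, a mean of 0.91 ± 0.083. Each list carries its own constant, so these SDs include any offset between the lists and are not replicate spread alone. Median scores of the members were 0.70 in replicate 1, 0.83 in replicate 2 and 0.50 for the combined list, against 0.65, 0.82 and 0.47 on 3R. The complex thus stood apart from its arm in the number of regions. Its median scores lay close to those of the arm in each list. Its largest width was low in the replicate lists, but with so few regions this cannot be separated from their number.

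**Figure D5:**
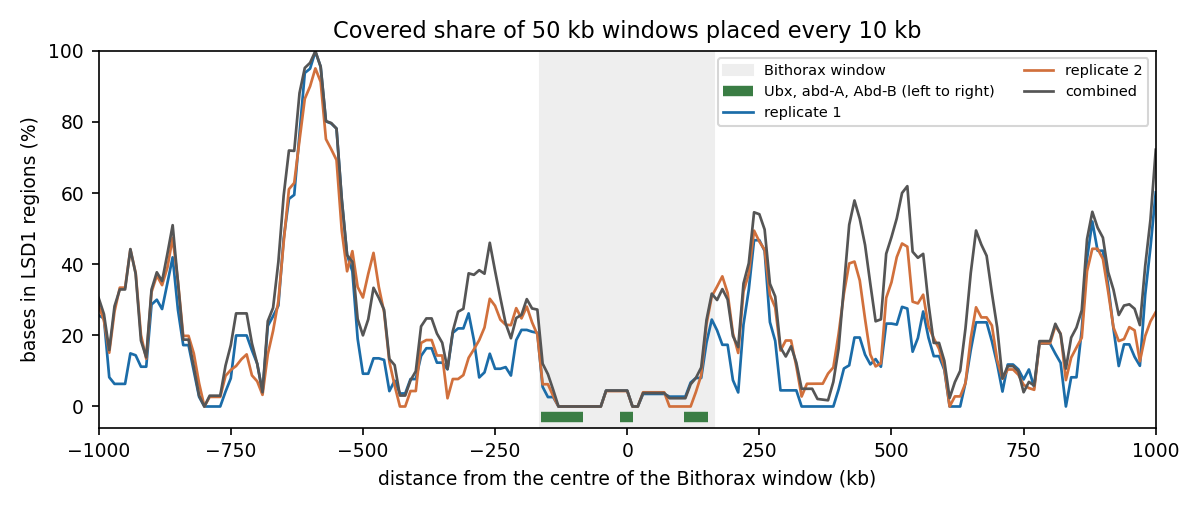
Share of bases (y axis, percent) covered by LSD1 regions in 50 kb windows placed every 10 kb within 1000 kb on either side of the centre of the Bithorax window (x axis, kb), with one line per list. The lines stay low through the shaded window and rise at both of its edges, and single 50 kb windows elsewhere also reach 0%.

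The edges of the sparse stretch lay near the ends of the complex. In the 50 kb just left of the window the covered share was 21.5% in replicate 1 and 28.1% in replicate 2, and in the 50 kb just right of it 17.3% and 31.9%. On the left, 22.4 kb from the window in replicate 1 and 22.9 kb in replicate 2, stood a region of 7754 bp with a score of 1.17 in replicate 1 and of 6979 bp with 1.17 in replicate 2. Over a full window length the flanks had intermediate shares. The left flank was covered to 13.9% in replicate 1 and 18.5% in replicate 2, and the right flank to 14.2% and 23.9%. Both flanks also held sparse 50 kb windows of their own, between 150 and 200 kb from the window. On the right the shares there were 0% in replicate 1 and 6.39% in replicate 2, and on the left 10.4% and 2.31%. Sparse cover over 50 kb was therefore not limited to the homeotic genes, whereas over 330 kb it was uncommon on this arm.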

How the data were processed

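Region lists of 2 LSD1 ChIP libraries and of their combined set were used as deposited. Positions follow release 5, per the file headers. Bowtie 0.12.7 is named in the submitters' processing notes. Region caller, threshold, scaling and read depth were not given in the sources used here. A stretch without regions is therefore one where no enrichment was called, and no interval that needs the depth is given. The score of each region is the authors' deposited value, for which, per the labels, the input of the same number served, and it was read as a log2 ratio, since 2 raised to it was, up to 1 constant per list, a ratio of whole numbers in 8110 of 8115, 9911 of 9911 and 11006 of 11016 regions (relative tolerance 1e-12, denominators up to 6000). After small random noise was added, 0, 1 and 19 regions gave such a ratio. The 3 depletion entries of the combined list lay outside the window and were left out.

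Covered shares count each base once. They were set beside windows of 3R placed every 10 kb that do not overlap the complex, and beside non-overlapping windows. Regions recurred when they shared at least 1 bp. Gene spans are approximate release 5 positions. Their lengths and spacing differed by at most 1.3 kb from those in the release 6 gene table, whose positions were not used. Every region of at least 10 kb and the 3 highest-scoring regions of each list were to be named, and the remaining members were named after their values were seen. The members and lists were chosen with earlier results of these data known. Interval functions were tested on simulated data. Python 3.11.15, numpy 2.4.6 and matplotlib 3.10.9 were used.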

Additional observations from a re-analysis of the deposited data

How the results depend on the processing

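Of 43 alternatives, 14 left 1 of the 2 replicates out of a mean, which keeps within the SD by construction and says nothing about stability. Of the other 29, 16 stayed within the replicate SD, or within 1.5 times for counts, and 13 moved. Some of the 16 were also fixed in advance. No region touched abd-A, so score filters could not change its share of 0%. The share of Ubx, 0.0822% ± 0.116, could not fall by more than its SD under such filters. The combined list as an alternative for the covered share and for the number of windows covered as little was chosen after seeing the data. The covered share of the window, 3.14%, moved to 1.58% and 0.665% with the upper 50% and 25% of regions by score, by construction of a stricter rule, to 2.49% from the left end of Ubx to the right end of Abd-B, and to 3.97% in the combined list, and was 3.04% to 3.25% when either replicate was left out. The number of windows covered as little, 9 for the replicate mean, was 3 to 10 when either replicate was left out, 0 among non-overlapping windows, 175 on 4 autosome arms, 0 with the upper 25% by score and 3 in the combined list. Between abd-A and Abd-B the share moved to 0% with the upper 50% and 0% with the upper 25%, and in Abd-B to 0% with the upper 25%. The length-weighted score of 0.84 moved to 0.77 as a median over regions. No paired analysis was possible because no list of the input libraries was used and no result comes from a test. The planned promoter search was not run, since no promoter sequence was used here. With the depth unknown, low shares cannot be separated from weak signal below the threshold.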
